A study of Mus musculus with 88 samples.

Results

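The 6 Iroquois homeobox genes of the mouse, Irx1 to Irx6, were followed through the exit of mouse embryonic stem cells (mESCs) from pluripotency. They were chosen by name, and they lie in a pair of genomic clusters of 3 genes each, Irx1-Irx2-Irx4 on chromosome 13 and Irx3-Irx5-Irx6 on chromosome 8. All 6 were listed in the mesoderm table of 53697 genes, the endoderm table of 54393 genes and the bulk embryoid body table of 26007 genes, and 5 of them, all but Irx6, in the single-cell table of 15830 genes.

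Iroquois genes encode transcription factors with a homeodomain of the TALE class (for its 3-amino-acid loop extension), which also includes the Meis, Pbx, Pknox and Tgif factors. They pattern the neural tube, the heart, the limb and the kidney, and in differentiated tissues genes of a cluster are often expressed together. In mESCs, promoters of developmental regulators of this kind are typical targets of Polycomb repressive complex 2 (PRC2), which methylates histone H3 at lysine 27 and has EED as a core subunit, while MTF2 and JARID2 are accessory subunits of its separate forms PRC2.1 and PRC2.2.

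The study held 88 samples from 3 experiments. In the directed series, E14 mESC monolayers that were WT, Mtf2 null (a gene-trap line, GT/GT) or Jarid2 null were collected undifferentiated and at 5 h, 24 h and 48 h. For mesoderm, cells were taken to mid primitive streak with Activin A, BMP4, CHIR99021 and FGF2 for 24 h and then to lateral mesoderm with A-83-01 and BMP4. For endoderm, they were taken to anterior primitive streak with Activin A, CHIR99021 and FGF2 and then to definitive endoderm with Activin A and DM3189. The 48 directed libraries were ribosomal RNA-depleted bulk RNA-seq, with 2 per genotype, time and series. The 2 Jarid2 null endoderm libraries labelled 48 h have column headers that name an earlier time. The label was followed here, so every Jarid2 null endoderm value at 48 h rests on it. The study described these as technical duplicates, so their p-values measure the spread between duplicates, not between independent differentiations, and both mutants were compared with the same WT libraries. Embryoid bodies, aggregates that differentiate in serum after LIF is withdrawn, were sequenced in bulk (24 samples, 6 lines at days 0, 2, 4 and 7, the lines labelled Mtf2 null, Jarid2 null and Eed null each with its own WT line, Pcl1-3 WT, JM8 and J1) and as sorted single cells (WT E14 and Eed, Jarid2 or Mtf2 null cells) at days 0, 4, 7 and 10 (16 plate libraries, 1 per genotype and day). The labels give the strain E14 to every genotype of the directed and single-cell samples, while the study's methods name Pcl1-3 WT, JM8 and J1 as the WT lines of matched background, so in comparisons with WT E14 the genotype and the background of the line cannot be told apart. None of the sources used here says whether a mutant line is more than 1 clone.

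The genotype labels were checked on the targeted genes. Mtf2 lay at 30.2 to 38.2 CPM (counts scaled to a common library size) in the directed Mtf2 null libraries, against 206 to 509 in WT. Jarid2 lay at 189 to 622 CPM in the directed Jarid2 null libraries, against 307 to 661 in WT, so its transcript did not separate those libraries. In the single-cell libraries Mtf2 was lowest in the Mtf2 null and Eed in the Eed null library on every day, and Jarid2 in the Jarid2 null library on days 0, 4 and 10. In the bulk embryoid bodies the labels were not borne out in the same way: at day 0 Mtf2 was lowest, at 127 CPM, under the label Jarid2 null, and stood at 316 under the label Mtf2 null, and of 250 genes that differed above 4-fold in the same direction between these labels at days 2, 4 and 7, 248 had the opposite sign at day 0. Under the label Eed null, Eed (111, 206, 107 and 58.2 CPM at days 0, 2, 4 and 7) was lower than in J1 (106, 246, 79 and 52.4 CPM) at day 2 only. Its transcript did not separate those samples. The endoderm cultures also departed from their name. In WT at 48 h 1 of 5 definitive endoderm markers was above 1 CPM, with the marker sum at 4.99 to 5.54 CPM, against 60.5 to 70.6 CPM and 4 of 5 markers in Mtf2 null. In the mesoderm cultures at 48 h 5 of 6 cardiac and lateral mesoderm markers were above 1 CPM in WT. In Mtf2 null 4 of 6 were, the same ones without Isl1. The sum of the 6 markers was 21.7 to 27.2 CPM in WT and 115 to 124 CPM in Mtf2 null.

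In GRCm38 coordinates the chromosome 13 cluster spanned 1311.7 kb, with Irx1 (ENSMUSG00000060969) at chr13:71957921-71963723 on the minus strand, Irx2 (ENSMUSG00000001504) at chr13:72628820-72634198 and Irx4 (ENSMUSG00000021604) at chr13:73260479-73269608, both on the plus strand. The chromosome 8 cluster spanned 882.4 kb, with Irx3 (ENSMUSG00000031734) at chr8:91798525-91802067 on the minus strand, Irx5 (ENSMUSG00000031737) at chr8:92357625-92376286 and Irx6 (ENSMUSG00000031738) at chr8:92674288-92680956, both on the plus strand. Irx3 overlaps the antisense gene Irx3os and Irx6 the antisense gene Gm45505. Whether the counting used strand is not given in the sources used here, so reads in these overlaps could belong to either gene.

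The 250 bases upstream of the start site, from RefSeq GRCm38.p6, are given because CpG-rich promoters are where PRC2 is found in mESCs. They are given for Irx2, Irx3 and Irx4, the 3 of 6 genes with a window in the promoter set used here. The windows are chr13:72628570-72628819 on the plus strand for Irx2, chr8:91801655-91801904 on the minus strand for Irx3 and chr13:73260247-73260496 on the plus strand for Irx4. The RefSeq start sites of Irx3 and Irx4 lie inside the gene bounds given above, so the whole Irx3 window and the end of the Irx4 window fall within those bounds. They are written 5′ to 3′ with each CpG in capitals:
Irx2: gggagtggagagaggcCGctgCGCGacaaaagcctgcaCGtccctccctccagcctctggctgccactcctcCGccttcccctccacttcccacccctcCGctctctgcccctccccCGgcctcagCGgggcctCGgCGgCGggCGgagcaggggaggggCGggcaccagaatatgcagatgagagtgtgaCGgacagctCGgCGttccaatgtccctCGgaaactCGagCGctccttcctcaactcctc
Irx3: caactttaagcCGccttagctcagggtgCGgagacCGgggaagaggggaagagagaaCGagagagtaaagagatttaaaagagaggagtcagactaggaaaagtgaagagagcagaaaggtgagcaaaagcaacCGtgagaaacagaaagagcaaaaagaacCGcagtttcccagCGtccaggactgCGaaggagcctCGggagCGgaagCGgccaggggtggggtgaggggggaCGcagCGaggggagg
Irx4: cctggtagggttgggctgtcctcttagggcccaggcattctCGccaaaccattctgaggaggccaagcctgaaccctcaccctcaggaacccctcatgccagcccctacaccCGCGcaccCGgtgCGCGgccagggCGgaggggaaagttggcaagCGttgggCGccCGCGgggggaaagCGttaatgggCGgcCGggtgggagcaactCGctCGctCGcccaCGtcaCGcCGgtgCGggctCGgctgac
The windows held 19 CpGs with 68.4% G and C in Irx2, 13 with 56.0% in Irx3 and 22 with 68.8% in Irx4. The median over 32851 promoter windows of the same length was 6 CpGs (quartiles 2 and 16) and 52.4% G and C. As many CpGs as in the window were found in 19.73% of all promoters for Irx2, 31.54% for Irx3 and 14.82% for Irx4. The letters GATAA, searched on both strands, were in none of the 3 windows and in 22.6% of all promoters.

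Libraries of the directed series held 9111880 to 16898264 counts in mesoderm and 9889592 to 16372804 in endoderm, and the Iroquois genes were at low levels throughout. Irx2 had the most counts, with 12 to 152 per library in mesoderm and 15 to 121 in endoderm. Irx3 had 1 to 94 and 1 to 21 counts, Irx5 had 3 to 27 and 2 to 20, and Irx4 had 0 to 52 and 0 to 11. Irx1 never exceeded 8 counts in a library, and Irx6 was at 0 in 20 of 24 mesoderm and 17 of 24 endoderm libraries. After a filter on low counts 4 of the 6 genes, Irx2, Irx3, Irx4 and Irx5, were tested in either series, among 18361 genes in mesoderm and 19261 in endoderm. The call in the directed series needed a change of more than 2-fold with an adjusted p (Benjamini-Hochberg) below 0.001 in edgeR's quasi-likelihood test, from which every adjusted p of that series is taken. In bulk RNA fewer cells of a type and less RNA per cell cannot be told apart.

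Irx3, which acts in neural tube, limb and cardiac conduction patterning, rose late and in mesoderm. In WT mesoderm cultures it lay at 0.394 and 0.682 CPM undifferentiated, 0.632 and 0.940 at 5 h, 0.542 and 0.219 at 24 h, and 5.23 and 7.66 at 48 h. Both 48 h libraries were above every earlier one. The log2 fold change from undifferentiated to 48 h was 3.53 (SE 0.45, adjusted p = 3.7e-06) and that from 24 h to 48 h was 4.09 (SE 0.47, adjusted p = 2.3e-06), and both passed the call under all 10 alternative settings and left-out libraries. In WT endoderm cultures Irx3 stayed between 0.256 and 0.568 CPM at all 4 times.

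Irx5, the partner of Irx3 in the chromosome 8 cluster and a regulator of ventricular repolarization, followed on a smaller scale. It lay at 0.296 and 0.426 CPM in undifferentiated WT mesoderm cultures, at 0.813 and 0.731 at 5 h, at 0.362 and 0.438 at 24 h and at 1.44 and 2.20 at 48 h. The 48 h libraries were again the highest. The log2 fold change was 2.28 from undifferentiated to 48 h (SE 0.44, adjusted p = 4.0e-04) and 2.14 from 24 h to 48 h (SE 0.42, adjusted p = 0.001). Both calls were less firm than those of Irx3: the first held in 5 of 10 alternatives, with a largest adjusted p of 0.0082 without a library in WT at 48 h (replicate 2), and the second in 3 of 10, with 0.019 without WT replicate 1 at 24 h. Markers of several cell types were also higher in these 48 h WT libraries than in the undifferentiated ones. The summed level of the 6 cardiac and lateral mesoderm markers went from 10.9 to 13.1 CPM to 21.7 to 27.2, that of the 6 neural ectoderm markers (3 above 1 CPM) from 12.4 to 14.0 to 48.7 to 68.1, and that of the 4 trophoblast markers (3 above 1 CPM) from 33.7 to 36.5 to 82.2 to 145. None of these markers was at 0, and their part in the Irx3 and Irx5 levels was not tested.

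Irx2, of the chromosome 13 cluster and expressed in neural and limb tissue, had another time course, a rise in the streak phase and a return. In WT mesoderm cultures it lay at 2.66 and 1.36 CPM undifferentiated, 5.24 and 7.42 at 5 h, 10.3 and 10.9 at 24 h, and 2.48 and 3.26 at 48 h. The 24 h libraries were the highest and the 48 h libraries overlapped the undifferentiated ones. Irx2 rose by a log2 fold change of 1.66 by 5 h (SE 0.34, adjusted p = 8.4e-04) and 2.41 by 24 h (SE 0.33, adjusted p = 1.1e-05), and from 24 h to 48 h it fell by 1.89 on the log2 scale (SE 0.30, adjusted p = 1.2e-04). The rise to 24 h missed the call in 1 of 10 alternatives (adjusted p = 0.0011 without undifferentiated WT replicate 2), and the fall missed it in 3 of 10 (at most 0.0048, without WT replicate 1 at 48 h). In WT endoderm cultures, which also pass through a streak phase, Irx2 lay at 2.27 and 1.41 CPM undifferentiated, 4.63 and 5.28 at 5 h, 7.19 and 7.73 at 24 h, and 1.91 and 4.05 at 48 h. The rise to 24 h was called (log2 2.02, SE 0.31, adjusted p = 3.7e-05), and without undifferentiated WT replicate 2 its adjusted p was 0.0029. The later difference of -1.34 (SE 0.29, adjusted p = 0.0019) was not called.

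Irx4, which in the heart is restricted to the ventricles, had 0 to 21 counts in the WT mesoderm libraries. Undifferentiated it lay at 0.394 and 0.341 CPM, at 5 h at 0 and 0.209, at 24 h at 0.181 and 0.0729, and at 48 h at 1.37 and 1.71. The 48 h libraries were the highest, but with a log2 fold change from undifferentiated of 2.04 (SE 0.73, adjusted p = 0.035) Irx4 did not pass the call. Over all genes 8.64% were called between undifferentiated and 48 h in WT mesoderm cultures and 8.15% in WT endoderm cultures, beside 2 of the 4 tested Iroquois genes (Irx3 and Irx5) in mesoderm and 0 of 4 in endoderm. In the endoderm comparison edgeR gave 0 at an unadjusted p under 0.05, against 43.6% of all genes, and DESeq2 called 0. From undifferentiated to 5 h in WT mesoderm cultures Irx2 was 1 of 4 called, against 4.13% of all genes, and from 24 h to 48 h Irx2, Irx3 and Irx5 were 3 of 4, against 4.16%. From undifferentiated to 24 h, when 6.96% of genes were called in WT mesoderm and 5.31% in WT endoderm cultures, Irx2 was the only Iroquois gene called in either.

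**Figure D1:**
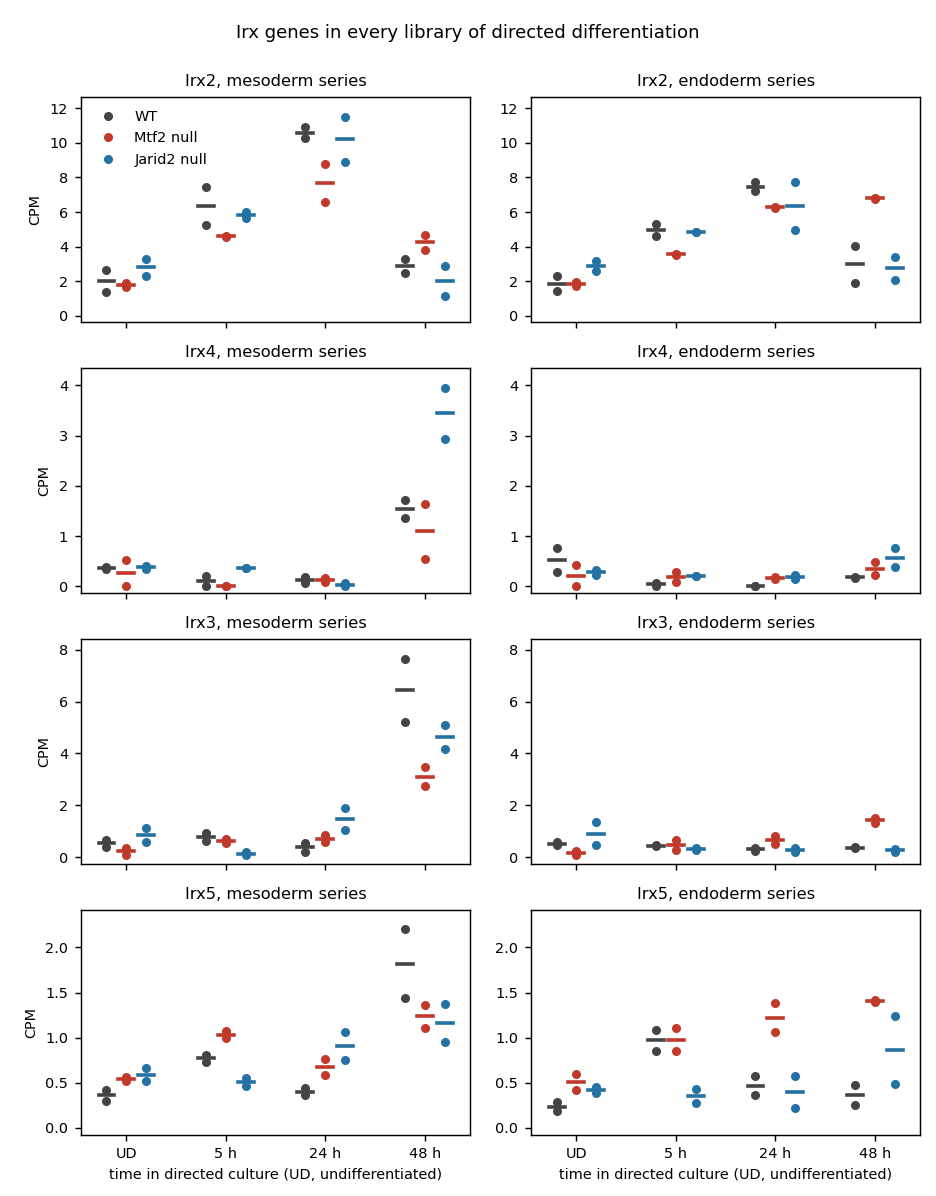
CPM of Irx2, Irx3, Irx4 and Irx5 (rows) against time in hours in the mesoderm and endoderm series (columns), with a point for each of the 2 libraries per genotype and a short bar at their mean. Irx2 peaks at 24 h in WT at 10.3 and 10.9 CPM in mesoderm, while Irx3 reaches 5.23 and 7.66 CPM at 48 h in mesoderm and stays under 0.6 CPM in WT endoderm.

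The difference between the lineages was tested directly as the change from undifferentiated to 48 h in mesoderm minus that in endoderm, in a joint fit over 19601 genes. In WT the difference was 4.05 on the log2 scale for Irx3 (SE 0.80), with an adjusted p that rounds to 0.001 and lay just above the threshold. It passed in 3 of 14 alternatives and had an adjusted p of 0.018 without undifferentiated WT endoderm replicate 1. In Jarid2 null it was 4.19 for Irx3 (SE 0.69, adjusted p = 6.8e-05), where 1.97% of all genes were called. It was called under all 6 alternatives, but unlike in WT none of these left out a library. The undifferentiated Jarid2 null endoderm libraries held 21 and 6 Irx3 counts, and those labelled 48 h have headers that name an earlier time. In Mtf2 null the difference was 0.64 for Irx3 (SE 1.01, adjusted p = 0.93). In WT the differences of the other members were 3.51 for Irx4 (adjusted p = 0.093), 1.68 for Irx5 and -0.16 for Irx2. With 0 of 4 called in WT, against 1.35% of all genes, 2 had an unadjusted p under 0.05, as did 16.7% of all genes, and DESeq2 called 0.

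Per kilobase of exon, the order of the genes changed with time. In WT mesoderm cultures at 24 h Irx2 led at a mean of 3.23 CPM per kb. At 48 h Irx3 led at 2.33 CPM per kb, followed by Irx2 at 0.874, Irx4 at 0.591 and Irx5 at 0.582, with Irx1 at 0.0622 and Irx6 at 0.0194. The last 2 rest on a few counts, and Irx4 and Irx5 lay within their duplicates' spread of each other. Summed over each cluster, WT mesoderm libraries went from 1.07 and 0.61 CPM per kb for chromosome 13 and 0.237 and 0.383 for chromosome 8, undifferentiated, to 1.28 and 1.77 for chromosome 13 and 2.39 and 3.48 for chromosome 8 at 48 h. The chromosome 8 cluster was thus the lower in every undifferentiated WT library and the higher in both 48 h WT mesoderm libraries. In WT endoderm libraries at 48 h it stayed the lower, at 0.26 and 0.287 against 0.681 and 1.41 CPM per kb. At 48 h in mesoderm the chromosome 8 sum was the lower in both Mtf2 null libraries (1.42 and 1.62 against 1.83 and 1.64 CPM per kb). In Jarid2 null it was the higher in replicate 1 (1.81 against 1.51) and the lower in replicate 2 (2.28 against 2.54). The cluster sums were descriptions and were not tested.

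In Mtf2 null cultures Irx3 was highest at 48 h in both series. In mesoderm Irx3 lay at 0.373 and 0.104 CPM undifferentiated, 0.534 and 0.711 at 5 h, 0.855 and 0.585 at 24 h, and 2.73 and 3.49 at 48 h. In endoderm it lay at 0.0837 and 0.257 CPM undifferentiated, 0.283 and 0.645 at 5 h, 0.831 and 0.528 at 24 h, and 1.5 and 1.33 at 48 h. At 48 h both Mtf2 null mesoderm libraries were below both WT libraries and both Mtf2 null endoderm libraries above both WT libraries, which stood at 0.346 and 0.377 CPM. From undifferentiated to 48 h the log2 fold change in Mtf2 null was 3.61 in mesoderm (SE 0.55, adjusted p = 4.5e-05, 1 of 4 genes called against 6.28% of all genes), with an adjusted p of 0.0023 without undifferentiated Mtf2 null replicate 2. In endoderm it was 2.99 (SE 0.65, adjusted p = 0.0011) and not called. The undifferentiated Mtf2 null libraries held only 4 and 1 Irx3 counts in mesoderm and 1 and 3 in endoderm.

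Irx2 and Irx5 were also higher at 48 h in Mtf2 null endoderm cultures than in WT, short of the call. Irx2 lay at 6.81 and 6.77 CPM in Mtf2 null against 1.91 and 4.05 in WT, and Irx5 at 1.42 and 1.40 against 0.260 and 0.471. In neither gene did the genotypes overlap, but with 2 libraries each this is weak, and it was not counted over all genes. In this comparison 45.8% of all genes had an unadjusted p under 0.05 in edgeR. The log2 fold changes were 1.20 for Irx2 (SE 0.29, adjusted p = 0.0023), 1.94 for Irx3 (SE 0.58, adjusted p = 0.011) and 1.93 for Irx5 (SE 0.55, adjusted p = 0.0085). These 3 of 4 genes were higher at an adjusted p under 0.05, as were 20.4% of all genes, and without WT replicate 1 at 48 h each of the 3 was above it, at 0.068, 0.069 and 0.091. The median log2 fold change over the 4 genes was 1.57, against -0.02 over all genes tested. Irx4 lay at 0.224 and 0.489 CPM against 0.173 and 0.188, on at most a few counts per library. In the same libraries the neural ectoderm markers were lower in Mtf2 null (sum 19.6 to 27.7 against 64.1 to 94.3 CPM in WT) and the endoderm and mesoderm markers higher (mesoderm sum 154 to 184 against 11.3 to 13.3 CPM), and the part of these shifts in the Iroquois levels was not tested.

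In mesoderm at 48 h the Mtf2 null differences ran the other way or were small. The log2 fold change against WT was -1.04 for Irx3 (SE 0.35, adjusted p = 0.032), 0.58 for Irx2, -0.51 for Irx4 and -0.55 for Irx5, and none was called. Irx2 stood at 3.82 and 4.68 CPM against 2.48 and 3.26 in WT, and Irx5 at 1.36 and 1.11 against 1.44 and 2.20. In the same libraries the summed neural ectoderm markers were at 26.6 to 30.3 CPM in Mtf2 null against 48.7 to 68.1 in WT. The trophoblast sum was 351 to 406 against 82.2 to 145 CPM, and the cardiac and lateral mesoderm sum 115 to 124 against 21.7 to 27.2. The part of these shifts in the Iroquois levels was not tested. Across all 4 times edgeR called 0 of 4 Iroquois genes between Mtf2 null and WT in either series, where 11.1%, 7.56%, 5.72% and 6.82% of all genes were called in mesoderm and 11.0%, 7.61%, 6.58% and 10.5% in endoderm, undifferentiated to 48 h. At an unadjusted p under 0.05 there were 0, 0, 0 and 1 genes in mesoderm and 0, 0, 2 and 3 in endoderm, in the same order, and DESeq2 called 0 in each. Over all genes 46.9%, 38.3%, 33.1% and 38.5% were under it in mesoderm and 48.1%, 40.1%, 35.9% and 45.8% in endoderm. In undifferentiated cells only Irx2 passed the filter when both series were fitted together, with a log2 fold change of -0.08 in Mtf2 null.

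Whether the Mtf2 null difference at 48 h itself differed between the cultures was tested as a contrast chosen after seeing the data, mesoderm minus endoderm. It was -2.97 for Irx3 (SE 0.64, adjusted p = 0.0031), -2.47 for Irx5 (SE 0.60, adjusted p = 0.0098), -0.61 for Irx2 and -1.45 for Irx4. None met the call, which 1.06% of all genes did, and 2 of 4 had an adjusted p under 0.05, as did 5.09% of all genes. At an unadjusted p under 0.05 there were also 2, against 16.9% of all genes, and DESeq2 called 0. Leaving out a library gave adjusted p values of up to 0.022 for Irx3 (without WT endoderm replicate 2 at 48 h) and 0.064 for Irx5 (without WT endoderm replicate 1 at 48 h). For Irx3 the difference in the change from undifferentiated to 48 h between Mtf2 null and WT was 3.50 in endoderm (SE 0.96, adjusted p = 0.011) and 0.08 in mesoderm (adjusted p = 0.96). The endoderm value was not called and ranged from 2.91 to 4.43 over 14 alternatives. Its adjusted p was 0.072 without undifferentiated Mtf2 null endoderm replicate 1. The undifferentiated endoderm libraries held 1 and 3 Irx3 counts in Mtf2 null and 6 and 5 in WT.

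**Figure D2:**
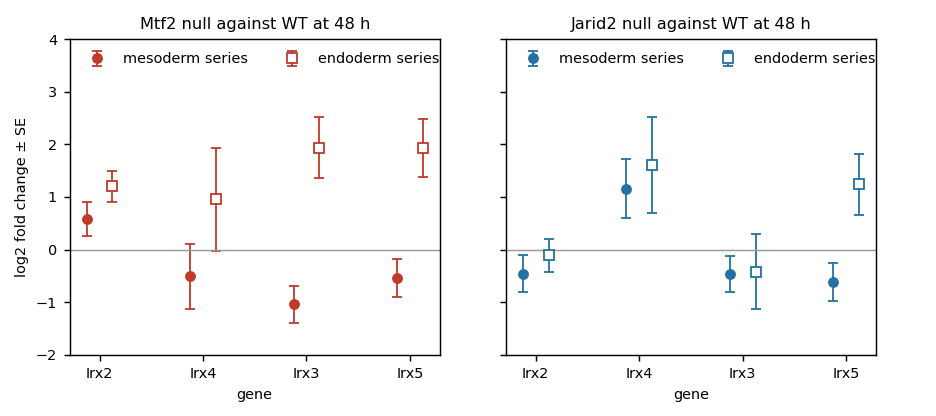
Log2 fold change at 48 h against WT (y axis) with its SE for Irx2, Irx3, Irx4 and Irx5 in Mtf2 null and Jarid2 null, mesoderm and endoderm series. For Irx3 in Mtf2 null the values are -1.04 in mesoderm and 1.94 in endoderm.

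Irx2 kept its 24 h rise in Mtf2 null. In mesoderm it went from 1.68 and 1.87 CPM to 6.56 and 8.78 (log2 2.11, SE 0.34, adjusted p = 1.4e-04), and in endoderm from 1.92 and 1.71 to 6.28 and 6.25 (log2 1.78, SE 0.31, adjusted p = 2.9e-04). Without an undifferentiated Mtf2 null library the adjusted p reached 0.0044 in mesoderm (replicate 1) and 0.0075 in endoderm (replicate 2). In Mtf2 null it was the only Iroquois gene called over this interval, where 4.1% of all genes were called in mesoderm and 3.24% in endoderm. From 24 h to 48 h the log2 fold change of Irx2 in Mtf2 null endoderm was 0.12 (SE 0.26, adjusted p = 0.83), beside -1.34 in WT, where it was not called either, and the difference between the genotypes over this interval was not tested. The rise from undifferentiated to 48 h was 1.89 (SE 0.31, adjusted p = 5.1e-05, 1 of 4 genes called against 8.93% of all genes), with an adjusted p of 0.0018 without undifferentiated Mtf2 null replicate 2.

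In Jarid2 null mesoderm cultures Irx3 also rose late. It lay at 0.580 and 1.13 CPM undifferentiated, 0.0927 and 0.187 at 5 h (1 and 2 counts), 1.89 and 1.03 at 24 h, and 4.17 and 5.09 at 48 h. In endoderm it lay at 0.207 and 0.327 CPM in the libraries labelled 48 h, whose headers name an earlier time. At 24 h in mesoderm both Jarid2 null libraries were above the WT libraries (0.542 and 0.219), with a log2 fold change of 1.98 (SE 0.53, adjusted p = 0.01, and 0.2 without Jarid2 null replicate 1). The change from 5 h to 24 h was called for Irx3 (adjusted p = 3.7e-04, 1 of 4 genes against 10.4% of all genes) on a base of 1 and 2 counts. From undifferentiated to 48 h Irx3 rose by 2.44 on the log2 scale (SE 0.42, adjusted p = 1.2e-04, 1 of 4 genes against 8.5% of all genes), with 0.0049 without undifferentiated Jarid2 null replicate 1.

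Irx4 was highest of all directed libraries in Jarid2 null mesoderm at 48 h. It lay there at 2.94 and 3.95 CPM (31 and 52 counts), against 1.37 and 1.71 (21 and 21 counts) in WT and 1.64 and 0.555 (18 and 7 counts) in Mtf2 null. Against WT the difference was not called, and between Mtf2 null and Jarid2 null it was -1.67 on the log2 scale (adjusted p = 0.043). From 24 h, when Jarid2 null libraries had 1 and 0 counts, to 48 h the change of Irx4 was called (adjusted p = 6.8e-05, and 0.0021 without Jarid2 null replicate 2 at 24 h). In mesoderm Irx4 had at most 5 counts per library before 48 h and passed the low-count filter only through its 48 h libraries. The call thus restates the 48 h level that let Irx4 be tested and adds no support for a rise. Irx2 fell by 2.30 on the log2 scale from 24 h to 48 h (SE 0.32, adjusted p = 1.5e-05), from 11.5 and 8.89 CPM to 1.14 and 2.89. With Irx4 counted, 2 of 4 genes were called against 7.79% of all genes. The earlier rise of Irx2 to 24 h was 1.86 in mesoderm (SE 0.31, adjusted p = 8.8e-05, 1 of 4 genes against 7.88% of all genes), with 0.0034 without undifferentiated Jarid2 null replicate 1, and 1.13 in endoderm (adjusted p = 0.0044, not called).

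Between Jarid2 null and WT edgeR called 0 of 4 Iroquois genes at each of the 4 times in either series, where 0.37%, 0.0%, 1.97% and 0.169% of all genes were called in mesoderm and 0.742%, 0.0363%, 0.0312% and 0.125% in endoderm. At an unadjusted p under 0.05 there were 0, 1, 2 and 0 genes in mesoderm and 0, 1, 1 and 1 in endoderm, and DESeq2 called 0 in each. Over all genes 21.1%, 14.6%, 35% and 13.7% were under it in mesoderm and 23.3%, 7.61%, 9.03% and 21.8% in endoderm. Between the mutants, Irx2 at 48 h in endoderm was called higher in Mtf2 null (6.81 and 6.77 against 2.07 and 3.40 CPM, log2 1.31, SE 0.28, adjusted p = 9.1e-04), 1 of 4 genes against 9.84% of all genes. That call held in 4 of 11 alternatives and was lost in DESeq2, with an adjusted p of 0.027 without Jarid2 null replicate 1 at 48 h. It uses the Jarid2 null libraries labelled 48 h whose headers name an earlier time.

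Likeness of time courses was described by Pearson's r over the 24 group means of the directed series, among 15288 genes, with no test, since the means share cultures, times and genotypes. Within the chromosome 8 cluster r was 0.683 for Irx3 and Irx5. Within the chromosome 13 cluster it was -0.506 for Irx2 and Irx4. Across clusters Irx3 and Irx4 had an r of 0.653, Irx4 and Irx5 of 0.3, Irx2 and Irx5 of 0.165, and Irx2 and Irx3 of -0.047. Irx2 and Irx4 thus shared a chromosome but were not alike over these group means. Irx4 was near the floor in most of them, with 0 to 11 counts per endoderm library and 0 to 5 per mesoderm library before 48 h. Its r values therefore rest largely on the 48 h mesoderm groups and on few counts. The genes most like Irx2 were Snx3 (0.898), Pcdhgc3 (0.88) and Zcchc2 (0.877), and those most like Irx3 were Rhou (0.831), Igf2 (0.828) and Ier5l (0.818). Irx4 was most like Lfng (0.87), Fes (0.859) and Hand1 (0.841), and Irx5 most like Mex3b (0.825), Iqsec1 (0.77) and Rpia (0.761).

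Other TALE-class genes include cofactors that bind DNA together with homeodomain proteins. In WT mesoderm 4 of 12 were called between undifferentiated and 48 h, against 8.64% of all genes. Among them Meis1 (2.71) and Meis2 (5.35) rose and Pbx3 fell by 1.26 on the log2 scale. Several were also called between Mtf2 null and WT. In undifferentiated libraries of both series 5 of 11 tested were called, against 14.7% of all genes. Among these Meis1 (2.22), Pknox2 (2.01) and Tgif1 (1.03) were higher and Mkx (-2.14) was lower. In that fit only 1 Iroquois gene, Irx2, passed the filter, so the lists cannot be set against each other there. Between Jarid2 null and WT 0 of the 12 listed were called at any time.

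In bulk embryoid bodies Irx3 was the Iroquois gene with the clearest rise. At day 0 it lay at 2.67 CPM in J1, 1.90 in JM8 and 1.44 in Pcl1-3 WT, and at day 7 at 21.4, 34.2 and 7.90. In the lines labelled Eed null, Jarid2 null and Mtf2 null it lay at 6.86, 4.01 and 0.734 CPM at day 0 and at 35.7, 22.6 and 20.8 at day 7. Each of the 6 lines was highest at day 7 and above its own day 4 value, which lay between 3.53 and 7.43 CPM. Irx5 was under 1.1 CPM in every line at days 0 and 2, and at day 7 it lay at 13.6 in Eed null, 4.26 in J1, 6.05 in Jarid2 null, 6.00 in JM8 and 5.92 in Mtf2 null, with 0.526 in Pcl1-3 WT. Pcl1-3 WT was the line in which Irx3, Irx5 and Irx1 (0.211 CPM) were all lowest at day 7.

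Of the chromosome 13 genes, Irx1, which is expressed in lung and neural tissue, was at or under 2.22 CPM at day 4 in all lines but Mtf2 null (2.31) and at day 7 lay at 5.51 in Eed null, 5.57 in JM8, 5.34 in Jarid2 null, 3.25 in Mtf2 null and 2.33 in J1. Irx2 was present from day 0, at 2.28 to 7.90 CPM, was lower at day 2 in every line (1.5 to 3.63), and at day 7 was highest in Mtf2 null at 10.1. Irx4 was uneven across lines: at day 0 it stood at 6.65 CPM in Eed null and 2.34 in Jarid2 null and at or under 0.38 in the other 4, and at day 7 at 10.6 in Mtf2 null, 5.30 in Eed null, 5.13 in JM8 and 3.68 in Pcl1-3 WT, but 1.12 in J1 and 0.613 in Jarid2 null. Irx6 had at most 3 reads in any sample.

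Each labelled mutant was compared with its own WT line in limma over 15833 genes with the day as a block. Duplicate columns of a sample had been added, so the days served as replicates. In each of the 3 comparisons 0 of 5 tested Iroquois genes passed an adjusted p of 0.05. Over all genes 18.5% passed for the Mtf2 null label, 14.9% for Jarid2 null and 11.1% for Eed null. At an unadjusted p under 0.05 limma gave 2, 0 and 2 Iroquois genes and edgeR on the recovered reads 1, 0 and 2, of which edgeR called 0. Over all genes 32.3%, 29.4% and 27.3% were under it in limma and 32.6%, 29.5% and 25.4% in edgeR. The log2 differences above 1 were 1.87 for Irx4 in Eed null (SE 0.82, adjusted p = 0.15), 1.28 for Irx1 (SE 0.60, adjusted p = 0.14), 1.16 for Irx5 (SE 0.53, adjusted p = 0.14) and 1.15 for Irx4 (SE 0.82, adjusted p = 0.35) in Mtf2 null, and 1.20 for Irx1 in Eed null (SE 0.60, adjusted p = 0.20). Irx2 in Eed null had the lowest adjusted p, 0.13, at a difference of 0.74 (SE 0.31). With day 0 left out, where the labels and the targeted gene disagreed, 0 were called again, against 21.6%, 18.5% and 9.24% of all genes, with log2 differences of 1.74 for Irx1 and 1.60 for Irx5 in Mtf2 null and 1.26 for Irx4 in Eed null.

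**Figure D3:**
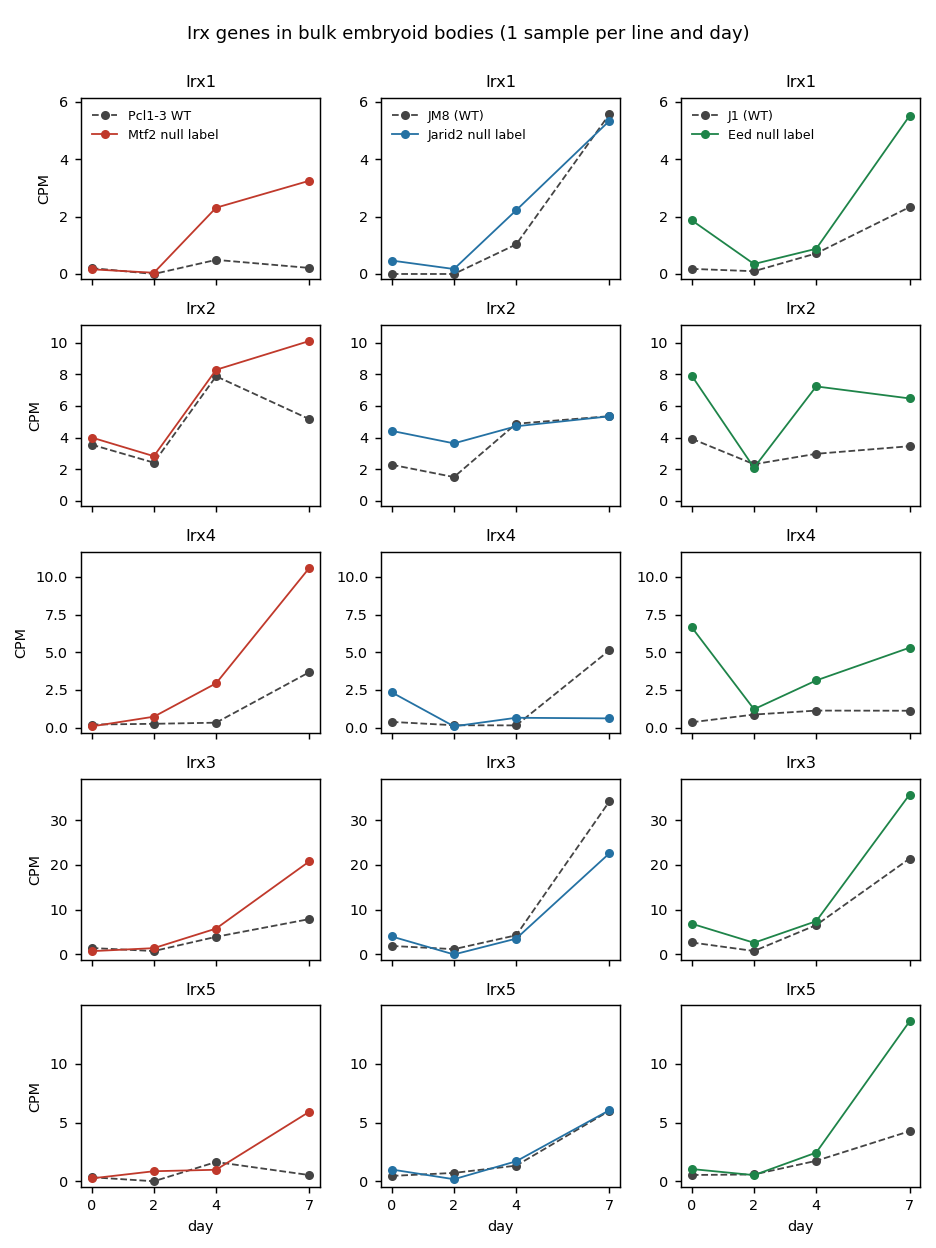
CPM of the Iroquois genes in bulk embryoid bodies against day (0, 2, 4 and 7), with a point per sample and a line per cell line. Irx3 is highest at day 7 in all 6 lines, from 7.90 CPM in Pcl1-3 WT to 35.7 in the line labelled Eed null.

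The single-cell table held 4949 cells, 202 to 347 per library with median UMI counts of 4997 to 10603 per cell, where a UMI marks a captured transcript. No cell had the same UMI profile as a cell of another library, and the 384 well numbers were used again in each plate. With 1 library per genotype and day the single-cell levels are a description and were not tested, and the 95% exact intervals (Poisson for CPM, Clopper-Pearson for shares) cover counting error only. Over all cells Irx3 had 1034 UMIs in 495 cells (10.0%), Irx5 414 in 236 (4.77%), Irx2 301 in 210 (4.24%), Irx1 215 in 137 (2.77%) and Irx4 54 in 40 (0.808%). Irx3 and Irx5 were thus the most often seen of the 5 genes, with 3′ counting in which gene length plays no part.

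Irx3 rose with the days in each genotype. In WT it went from 0.335 UMI CPM at day 0 to 9.34 at day 4, 19.8 at day 7 and 39.3 at day 10 (interval 29.6 to 51.2). In Mtf2 null it was 2.83, 7.68, 47.4 and 59.7 (49.9 to 71), in Jarid2 null 2.18, 7.53, 11.5 and 90.5 (76.9 to 106), and in Eed null 5.30, 9.30, 63.7 and 184 (162 to 209). At day 10 the order was Eed null, Jarid2 null, Mtf2 null and WT, and only the intervals of Mtf2 null and WT touched, between 49.9 and 51.2. Cells with an Irx3 UMI made up 15.4% of WT, 19.6% of Mtf2 null, 22.3% of Jarid2 null and 45.5% of Eed null cells at day 10. After each cell was thinned to 2500 UMIs the shares were 7.33%, 10.5%, 14.3% and 33.5%. In WT at day 0, undifferentiated cells that give the background, the share was 0.294% at a median depth of 8447 UMIs, against 4997 in Eed null and 5715.5 in WT at day 10.

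Irx5 was at 0 UMIs in WT at day 0 and at 10.0 UMI CPM at day 10. At day 10 it stood at 23.2 in Mtf2 null, 24.8 in Jarid2 null and 106 in Eed null. As with Irx3, the Eed null library was the highest. Irx1 and Irx2 of chromosome 13 had another order at day 10, with Jarid2 null highest. Irx1 lay at 7.15 UMI CPM in WT, 13.0 in Mtf2 null, 31.7 in Jarid2 null and 10.4 in Eed null, and Irx2 at 7.15, 11.6, 26.5 and 14.9. Irx4, the third gene of that cluster, was highest in Eed null at day 10, at 6.72 UMI CPM, with 3.7 in Mtf2 null and 0 UMIs in Jarid2 null and WT. It had 0 UMIs in the 1201 WT cells of all days, 36 UMIs in 28 Eed null cells, 15 in 10 Mtf2 null cells and 3 in 2 Jarid2 null cells. Summed over each cluster at day 10, the chromosome 13 and chromosome 8 genes were at 14.3 and 49.4 UMI CPM in WT, 28.2 and 82.9 in Mtf2 null, 58.2 and 115 in Jarid2 null, and 32.1 and 290 in Eed null. At day 0 in WT the chromosome 13 genes were the higher, at 3.68 against 0.335.

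**Figure D4:**
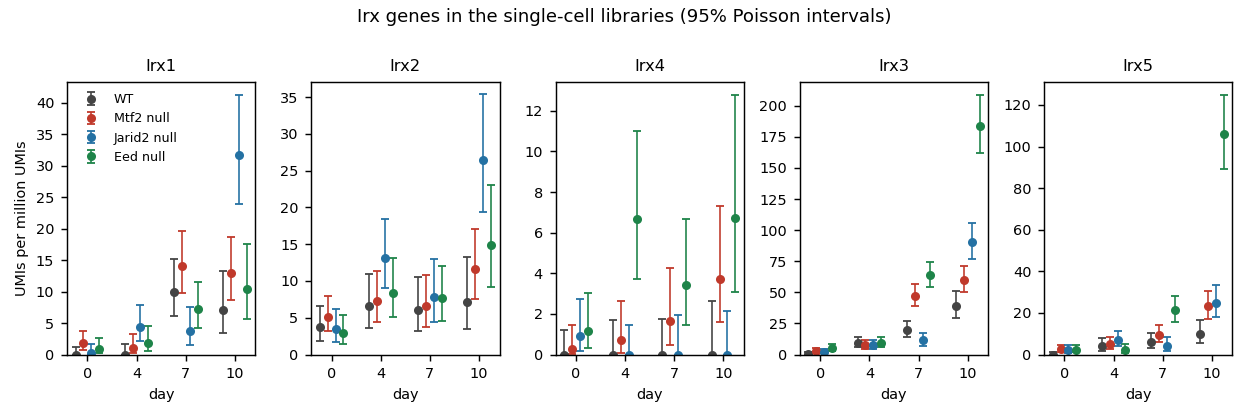
UMI CPM of Irx1, Irx2, Irx3, Irx4 and Irx5 in the 16 single-cell libraries against day, with a point per genotype and bars for 95% exact Poisson intervals. At day 10 Irx3 is at 184 UMI CPM in Eed null and 39.3 in WT, while Irx1 and Irx2 are highest in Jarid2 null at 31.7 and 26.5.

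The cells had been grouped by the study into 22 clusters of 47 to 386 cells. The study clustered on its most variable genes, and whether these included the Iroquois genes is not given in the sources used here. Iroquois levels by cluster are a description, and clusters are given by number with their leading genes. Irx3 was highest in cluster 13 at 199 UMI CPM (177 to 222), with a UMI in 51.8% of 226 cells. These cells were 87.2% Eed null and 85.4% from day 10, were led by Dnm3os, Rxfp1 and Vcam1, and had cardiac and lateral mesoderm markers at a sum of 908 UMI CPM. Irx5 was highest in the same cluster at 112 (95.9 to 130), and cluster 13 held 29.1% of all Irx3 and 41.1% of all Irx5 UMIs.

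Cluster 4, with Tnnt2 and Upk3b among its leading genes and the mesoderm markers at 1420 UMI CPM, held 26.5% of all Irx3 UMIs. Irx3 was at 126 UMI CPM there, Irx5 at 24.3 and Irx1 at 22.0. By genotype within cluster 4 Irx3 was at 92.7 in WT (72.1 to 117), 118 in Mtf2 null (98.4 to 139) and 246 in Jarid2 null (192 to 310), the last from 40 cells. The shares of these cells with an Irx3 UMI overlapped in their intervals, at 28.7% in WT (20.9 to 37.6), 32.7% in Mtf2 null (25.5 to 40.6) and 47.5% in Jarid2 null (31.5 to 63.9). Eed null cells made up 0.926% of cluster 4, so the high Irx3 level of the Eed null day 10 library lay almost wholly outside it.

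Cluster 15, with Fezf1 and Wnt8b among its leading genes and neural ectoderm markers at 1070 UMI CPM, was where Irx1 and Irx2 were highest, at 43.8 and 38 UMI CPM, with Irx4 at 1.15, beside Irx3 at 72.5 and Irx5 at 34.5. By genotype Irx3 in this cluster was at 153 in Jarid2 null (109 to 209), 34.4 in Mtf2 null (20.1 to 55.1) and 60.8 in WT (24.5 to 125), the last from 18 cells. The shares of cells with a UMI were 30.4% (17.7 to 45.8), 16.9% (9.05 to 27.7) and 27.8% (9.69 to 53.5) in the same order, with overlapping intervals. In cluster 16, 91.8% Eed null with Hoxa9 and Hoxc9 among its leading genes, Irx3 was at 94.5, and in cluster 21, with Apob, Hnf4a and Ttr, at 71.8 (48.4 to 103) from 47 cells. In cluster 14, led by Mesp1 and Mixl1 with primitive streak markers at 1690 UMI CPM, Irx3 was at 2.68 in WT (0.324 to 9.68) and 33.3 in Mtf2 null cells (20.1 to 52).

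Irx3 was not seen in cluster 18, led by haemoglobin genes (0 of 114 cells, which by a limit of 3 counts allows a share of cells with an Irx3 UMI of up to 2.63%). Irx2 had a UMI in all 22 clusters, beside 21 for Irx3 and Irx5, 19 for Irx1 and 11 for Irx4. Its median was 5.54 UMI CPM over clusters, and no cluster held more than 11.3% of its UMIs. Irx4 was highest in cluster 10 at 8.75 UMI CPM (5.27 to 13.7), made up of Eed null cells only and led by Fthl17 and Rhox4 genes, which held 35.2% of its UMIs.

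Detection in the same cell was described for pairs of genes, with no test. Of the cells with an Irx5 UMI, 47.5% also had an Irx3 UMI, against 10.0% of all cells, and the 112 cells with both were 22.6% of the Irx3 cells. Irx1 and Irx2 were found together in 23 cells, 16.8% of the Irx1 and 11.0% of the Irx2 cells, where 4.24% of all cells had an Irx2 UMI. Pairs on different chromosomes were also found together. Irx1 and Irx3 shared 50 cells, 36.5% of the Irx1 and 10.1% of the Irx3 cells. Irx1 and Irx5 shared 31 cells, 22.6% of the Irx1 and 13.1% of the Irx5 cells, where 4.77% of all cells had an Irx5 UMI. These shares depend on depth and on the cluster a cell belongs to, and cells with an Irx2 UMI had a median of 7908 UMIs against 6581 in cells without.

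**Figure D5:**
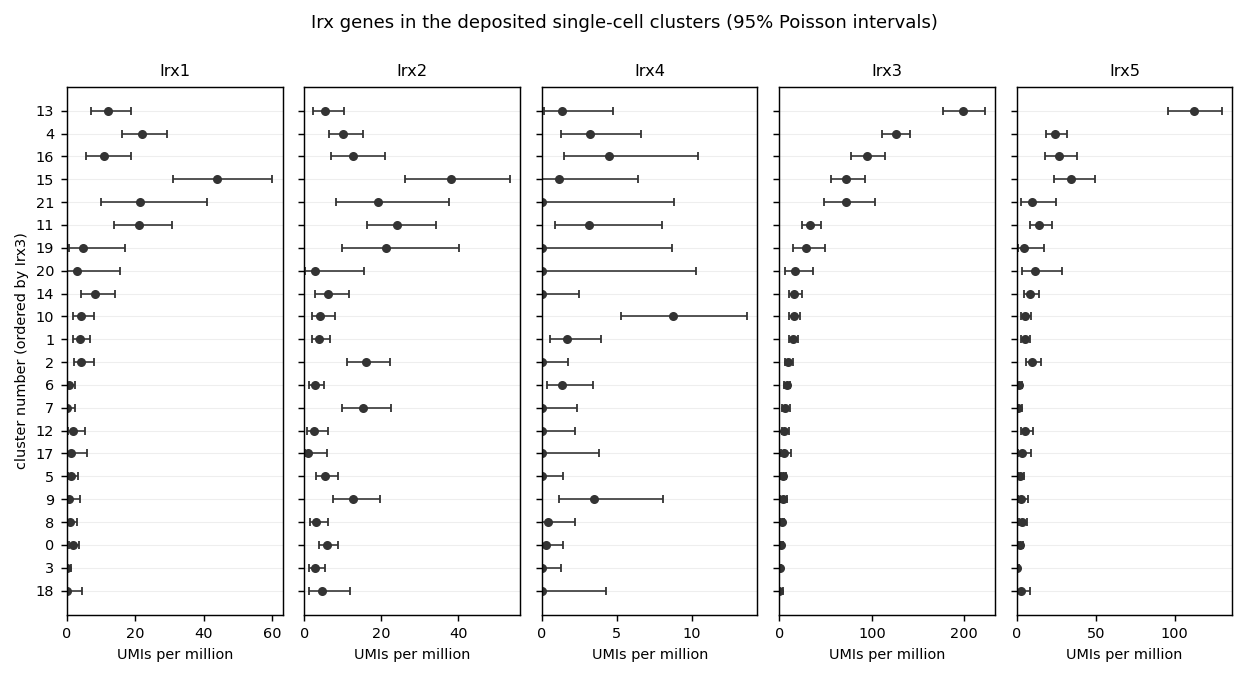
UMI CPM of the Iroquois genes in each of the 22 single-cell clusters, with 95% exact Poisson intervals. Irx3 stands at 199 UMI CPM in cluster 13 and 126 in cluster 4, and Irx1 and Irx2 are highest in cluster 15 at 43.8 and 38.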

How the data were processed

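The 88 samples were grouped by the GEO labels (genotype, time and series), and the 6 genes and the TALE-class, neighbour and marker lists were chosen with earlier results of these data known. For the directed series the authors deposited estimated counts per Ensembl gene (74.9% of mesoderm and 73.1% of endoderm values were whole), here rounded to whole counts. For bulk embryoid bodies the authors deposited normalized reads (signal units, DESeq2 size factors) in 46 columns for 24 samples. Whole reads were recovered from each column (100.0% of values whole at a tolerance of 0.02) and columns of a sample were added. Most samples had a pair of columns, mostly with replicate numbers in their headers, and the study describes its bulk RNA-seq as duplicates. The spread between the columns of a sample was therefore not used, and the days served as replicates. For single cells the authors deposited UMI counts of the cells they kept, and the authors' cluster numbers were used as deposited. Doublets were not called. The labels and methods name CASAVA, Bowtie2, HTSeq, Salmon, DESeq2 and GRCm38/mm10.

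Directed counts were tested in edgeR 4.0.16 (quasi-likelihood F test, TMM scaling, filterByExpr with a minimum count of 10 and total of 15, all 24 libraries of a series in 1 fit, a joint fit of 48 for lineage contrasts), in R 4.3.3. Lineage contrasts join tables of counts that were deposited separately. Bulk embryoid bodies were tested in limma 3.58.1 (trend) on log2 CPM with a prior count of 2, at least 1 CPM in 4 samples and the day as a block. DESeq2 1.42.0 was an alternative. UMI shares used scipy 1.17.1 and were repeated after thinning each cell to 2500 UMIs, which left out 492 cells. The edgeR fit of the directed series was tested on simulated counts, with a common dispersion and changes planted only in genes with a mean above 1 CPM. It does not cover calls at lower levels, where several Iroquois genes lay. All Iroquois genes are given, and of the other lists the called genes, apart from results that are not reported here. Per tested Iroquois gene the 3 most alike were named. The 4071242 to 30457254 reads per bulk embryoid body sample and the 9111880 to 16898264 counts per directed library limit genes at a few counts. Some folds given here rest on such levels. Among them are those of Irx3 from undifferentiated Mtf2 null libraries (4 and 1 counts in mesoderm, 1 and 3 in endoderm). The WT lineage difference of Irx4 rests on 2 and 2 counts in endoderm at 48 h. Of 12 genomic neighbours (3 per side of each cluster), 5 were tested in the directed series. Replicate numbers were not used for pairing. Alternatives were another scaling, filter, threshold, test or prior count, each library or day left out, thinning, and every well of the single-cell plates. No library was left out for the lineage contrasts of Jarid2 null or for the lineage difference within Mtf2 null.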

Additional observations from a re-analysis of the deposited data

Results flagged for a closer look

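In each of 17 groups of 4 samples the highest and lowest sample were set against the rest of the group, and 2 stood apart, where chance gives about 1 in 20. Both concern Irx6 and rest on a single read: 0.0937 CPM in replicate 2 of the undifferentiated WT endoderm libraries and 0.0867 CPM in replicate 2 of the undifferentiated Jarid2 null mesoderm libraries, with the other undifferentiated libraries of the genotype at 0. Irx3 differed between the cultures in Jarid2 null, where its log2 change from undifferentiated to 48 h was 4.19 larger in mesoderm than in endoderm (edgeR adjusted p = 6.8e-05). No library was left out in the alternatives for this contrast.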

How the results depend on the processing

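No direction reversed in any alternative, and 252 of 278 recomputed counts and shares stayed within 1.5 times or the interval of the reported value. For single genes 396 of 477 recomputed values kept their direction and their side of the threshold, while 42 lost and 31 gained the call. At an adjusted p under 0.05 with no fold limit the calls summed over the 4 times rose from 0 to 1 for Mtf2 null against WT and from 0 to 1 for Jarid2 null against WT in mesoderm, and from 0 to 3 for Mtf2 null against WT in endoderm. They also rose to 5 (mesoderm) and 4 (endoderm) for Mtf2 null against Jarid2 null, to 1 for the Mtf2 null minus WT change in endoderm and to 1 for the WT lineage difference. The 2 calls in WT mesoderm from undifferentiated to 48 h became 1 in DESeq2 and 1 with no filter, and 1 to 2 when a library was left out. Irx5 was the gene lost without WT replicate 2 at 48 h or either undifferentiated WT library. For Mtf2 null against WT in endoderm no filter gave 1 call (Irx2), and leaving out a library gave 0 to 1, with the call made without WT replicate 2 at 48 h. For Mtf2 null against Jarid2 null in endoderm the 1 call became 0 in DESeq2, 0 with upper-quartile scaling, 0 in a fit of the 4 libraries alone and 0 to 1 with a library left out. The WT lineage difference gained 1 call with a filter of 1 CPM in 2 libraries, 1 with no filter and 1 with upper-quartile scaling. The share of Eed null day 10 cells with an Irx3 UMI, 45.5%, was 33.5% after thinning and 24.5% over every well. The fit with the replicate number as a block gave 2 calls in WT mesoderm from undifferentiated to 48 h and 1 for Mtf2 null against Jarid2 null in endoderm, and changed no count of calls. Same-numbered libraries did not deviate together (median correlation 0.01 over 66 pairs of groups per series, above 0.1 in 6 and 4). The cause of these changes was not tested. Counts of 1 to 3 reads limit Irx1, Irx4 and Irx6 at most times.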

Other observations

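Of the 12 genes neighbouring the Iroquois clusters, 3 on each side, 5 could be tested in the directed series. Mmp2, which encodes a matrix metalloproteinase and lies beside the chromosome 8 cluster, was the gene among them called between Mtf2 null and WT. It was lower in Mtf2 null by a log2 fold change of -1.20 in undifferentiated libraries of both series, by -1.49 and -1.35 at 48 h in endoderm and mesoderm, and by -1.49 and -1.45 at 24 h (1 of 5 neighbours called in each). Over all genes 14.7% were called in the first of these comparisons, 10.5% and 6.82% at 48 h and 6.58% and 5.72% at 24 h. Mmp2 was not called at 5 h or in the undifferentiated libraries of either series alone. Between Jarid2 null and WT 0 of 5 neighbours were called at any time by edgeR.

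In bulk embryoid bodies, where 0 Iroquois genes were called, some other TALE-class genes were. Meis1 was higher with the Mtf2 null label (log2 2.60) and the Eed null label (1.69), Meis2 with the Jarid2 null (1.93) and Eed null (2.18) labels, and Mkx with the Jarid2 null label (1.98). Pbx2 was higher with the Mtf2 null (0.69) and Jarid2 null (0.58) labels. These were 2, 3 and 2 of 12 tested genes for the Mtf2 null, Jarid2 null and Eed null labels, beside 18.5%, 14.9% and 11.1% of all genes.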
